A study of Homo sapiens with 12 samples.

Results

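A set of 10 genes of the actin cytoskeleton and of the factors SRF and YAP was followed through A549/DDP cells, a cisplatin-resistant derivative of the A549 line of human lung adenocarcinoma. Cisplatin (DDP) is a platinum compound that forms adducts and crosslinks on DNA. The 10 genes, TAGLN, CCN1, CCN2, ANKRD1, ACTB, ACTG1, TPM1, MYL9, VCL and SRF, were taken by symbol from a table of 60902 rows, and each had 1 row. Of these, 8 averaged 1 TPM or more across the libraries and were among the 13854 genes tested. ANKRD1 and MYL9 lay under that limit and are described by their levels. TPM scales the length-corrected reads of a gene to a fixed library total and so gives its share of the transcripts.

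RNA was sequenced from 4 groups of A549/DDP cells with 3 libraries each. TRF+DDP cells received both the feeding regime and the drug, TRF cells the regime alone, DDP cells the drug in normal medium, and CON cells normal medium alone. TRF models time-restricted feeding in culture, with 6 h of normal medium (2 g/L glucose and 10% fetal bovine serum) followed by 18 h without serum and glucose in each cycle of 24 h, whereas the other cells had normal medium for all 24 h. The resistant line was kept in DDP before the experiments, so earlier exposure is shared by all 4 groups, and its withdrawal and the hour of the cycle at which RNA was taken were not found in the sources. The study states a DDP dose and a duration for the combination beside its sequencing and RT-qPCR results, without saying whether they hold for the sequenced cells. The labels name the cells A549/DDP and are followed here, while the extraction protocol speaks of A549 tumor cells. The study calls its replicates biological. The labels do not say whether the libraries of a group came from separate cultures, so p-values measure the spread between these libraries.

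SRF is a transcription factor that binds the CArG box, and its MRTF cofactors are held in the cytoplasm by unpolymerised actin, so that actin assembly turns on genes of actin filaments and their anchors. YAP is a coactivator restrained by the Hippo kinases, and it works through TEAD factors on the secreted proteins CCN1 and CCN2 and the nuclear ankyrin protein ANKRD1, which are often read as its targets. Serum and cell tension act on both routes, and ACTB is widely used as a reference in RT-qPCR, as an actin was in this study.

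The stretches upstream of 4 of the genes are shown because they hold the letters these factors are known to bind. RefSeq promoters (GRCh38.p14) were found for 6 of the 10 genes, with 7 annotated starts, and the 250 bases before each start were searched on both strands for the TEAD motif GGAATG and for the CArG box, which is CC, 6 bases that are A or T, and GG. CCN1, TAGLN, ACTB and MYL9 had no entry and were not searched, so nothing is said of their motifs. The 2 motifs do not overlap in any of these stretches. Capitals mark the matches, and each sequence runs 5′ to 3′ on the strand of its gene.
CCN2, chr6:131951373-131951622, minus strand: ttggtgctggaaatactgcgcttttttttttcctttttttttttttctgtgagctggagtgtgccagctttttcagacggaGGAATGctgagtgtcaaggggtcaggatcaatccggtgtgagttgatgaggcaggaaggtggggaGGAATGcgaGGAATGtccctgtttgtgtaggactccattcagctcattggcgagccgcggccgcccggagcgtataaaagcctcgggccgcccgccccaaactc
ANKRD1, chr10:90921088-90921337, minus strand: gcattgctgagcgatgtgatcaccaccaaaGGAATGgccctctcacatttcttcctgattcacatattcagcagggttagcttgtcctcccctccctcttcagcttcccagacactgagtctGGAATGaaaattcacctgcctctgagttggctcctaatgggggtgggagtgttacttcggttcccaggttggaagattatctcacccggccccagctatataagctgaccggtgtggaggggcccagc
ACTG1, chr17:81512800-81513049, minus strand: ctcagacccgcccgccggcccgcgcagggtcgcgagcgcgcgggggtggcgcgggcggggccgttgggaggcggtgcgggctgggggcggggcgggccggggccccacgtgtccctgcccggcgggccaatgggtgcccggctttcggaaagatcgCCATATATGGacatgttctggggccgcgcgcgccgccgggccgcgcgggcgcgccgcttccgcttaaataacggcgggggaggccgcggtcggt
SRF, first start, chr6:43171019-43171268, plus strand: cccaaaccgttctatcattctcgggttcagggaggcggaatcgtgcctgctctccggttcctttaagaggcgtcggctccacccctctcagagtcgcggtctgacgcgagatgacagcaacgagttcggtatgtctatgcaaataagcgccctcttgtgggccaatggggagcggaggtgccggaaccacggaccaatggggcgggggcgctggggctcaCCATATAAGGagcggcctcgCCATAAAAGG

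CCN2 held 3 copies of GGAATG, whose first bases lie 169, 104 and 95 bases before the start. ANKRD1 held 2, at 220 and 128 bases. VCL, the third gene with the TEAD motif among the 6 searched, held 1, at 171 bases. A match was present in 11.9% of 35116 promoters of the same length, 2 or more in 0.94% and 3 or more in 0.0826%. The CArG box was found once in ACTG1, 94 bases before the start, and in 2 copies in SRF, at 30 and 10 bases, whose own product binds it, against 1.16% of all promoters with a box and 0.0313% with 2 or more. The second start of SRF and that of TPM1 held neither motif. A match describes the letters of this window only.

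**Figure D1:**
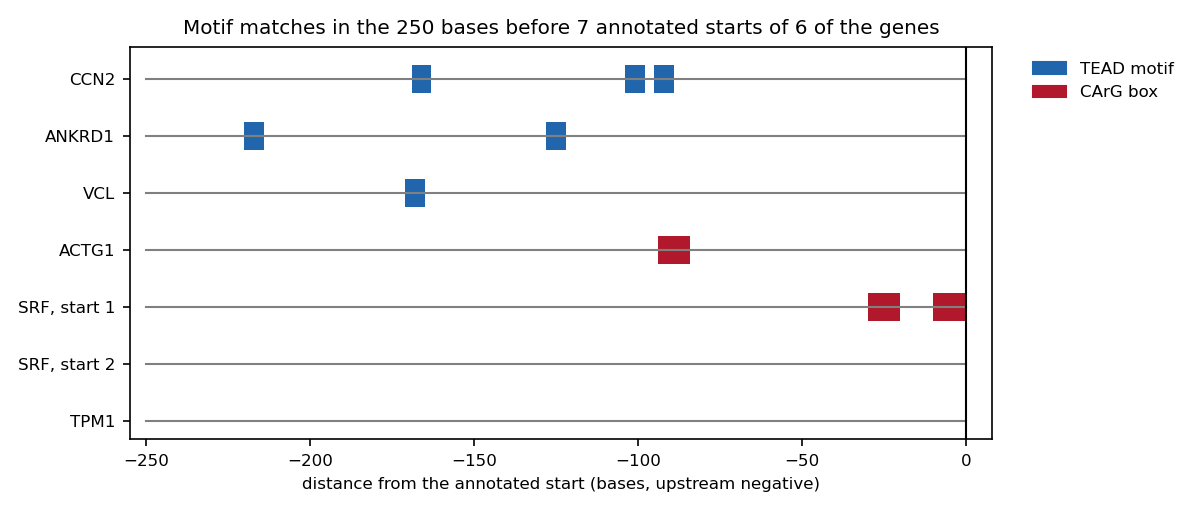
Positions of the TEAD motif GGAATG (blue) and of the CArG box (red) in the 250 bases before 7 annotated starts, with the distance from the start in bases on the x axis and 1 line per start. CCN2 carries 3 TEAD motifs, ANKRD1 2 and VCL 1, while ACTG1 carries 1 CArG box and the first start of SRF 2.

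CCN1 and CCN2, the secreted matrix proteins among the YAP targets, were highest in TRF+DDP cells and stepped down through TRF and DDP cells to CON cells. CCN1 (chr1:85580761-85583962, plus strand; GENCODE v29 on GRCh38 for this and the following gene positions) had 144, 137 and 143 TPM in TRF+DDP cells, 63.6, 65.3 and 61.0 TPM in TRF cells, 43.8, 40.3 and 45.4 TPM in DDP cells and 31.8, 30.9 and 29.7 TPM in CON cells. No library of one group overlapped another group. CCN2 (chr6:131948176-131951373, minus strand) had 78.9, 79.3 and 78.9 TPM in TRF+DDP cells, 34.1, 35.0 and 30.2 TPM in TRF cells, 18.6, 18.4 and 18.5 TPM in DDP cells and 11.2, 10.4 and 11.1 TPM in CON cells. Here too the 4 groups were apart, in the same order. Means were 141.3 ± 4.19 TPM in TRF+DDP cells and 43.2 ± 2.57 TPM in DDP cells for CCN1 (SD, n = 3 each), and 79.1 ± 0.225 TPM in TRF+DDP cells and 18.5 ± 0.117 TPM in DDP cells for CCN2.

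Differences were tested on log2(TPM + 1) with limma, and a call needed a fold above 1.5 as well as an adjusted p below 0.05. In TRF+DDP against DDP cells CCN1 was higher by 1.69 ± 0.052 (SE; adjusted p = 9.64e-11), which is 3.28-fold in mean TPM, and CCN2 by 2.04 ± 0.059 (adjusted p = 5.74e-11), or 4.27-fold. The combination also exceeded TRF alone, by 1.15 for CCN1 (adjusted p = 1.17e-08) and by 1.23 for CCN2 (adjusted p = 1.57e-08). TRF alone exceeded CON by 1.02 for CCN1 (adjusted p = 1.01e-08) and by 1.51 for CCN2 (adjusted p = 1.13e-09). CCN2 was higher in DDP than in CON cells by 0.71 (adjusted p = 1.89e-05), or 1.69-fold, while the difference of CCN1 was 0.47 (adjusted p = 1.22e-04), under the fold limit. A lncRNA gene on the opposite strand, AL133346.1, shares 195 exon bases with CCN2, and it had 0.48 to 1.17 TPM in TRF+DDP cells and at most 0.19 TPM in the libraries of the other groups.

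ANKRD1 (chr10:90912096-90921276, minus strand), the nuclear member of the YAP targets, was low in all cells, and its highest levels were in the same group. It had 3.45, 3.30 and 2.65 TPM in TRF+DDP cells, 0.27, 0.39 and 0.63 TPM in TRF cells, 0.29, 0.15 and 0.51 TPM in DDP cells, and 0.00, 0.06 and 0.00 TPM in CON cells. The TRF+DDP libraries lay above all others, and TRF and DDP libraries overlapped. With no filter on low values, where 31871 genes were tested, ANKRD1 was 1.65 ± 0.135 higher in TRF+DDP than in DDP cells (SE; limma, adjusted p = 4.28e-06) and 1.53 higher than in TRF cells (adjusted p = 2.12e-05), against 15.6% and 7.34% of genes called in those 2 comparisons. TRF differed from CON by 0.48 (adjusted p = 0.0223) and DDP from CON by 0.36 (adjusted p = 0.219), neither past both limits.

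TAGLN (chr11:117199321-117204782, plus strand), or transgelin, an actin-binding protein of smooth muscle and of spreading cells, had another order: it was highest with TRF alone. It had 15.0, 20.5 and 15.2 TPM in TRF+DDP cells, 35.3, 31.1 and 37.3 TPM in TRF cells, 4.34, 2.46 and 2.33 TPM in DDP cells, and 1.89, 3.07 and 3.13 TPM in CON cells. Both TRF groups lay above both groups in normal medium, TRF+DDP lay below TRF, and DDP and CON libraries overlapped. TAGLN was higher by 3.28 ± 0.195 in TRF than in CON cells (SE; limma, adjusted p = 4.82e-08), 12.8-fold in mean TPM, and by 2.17 in TRF+DDP than in DDP cells (adjusted p = 1.10e-06), or 5.55-fold. It was lower by 1.00 in TRF+DDP than in TRF cells (adjusted p = 0.00127, 0.489 of the mean TPM), and the difference of DDP from CON was 0.11 with a 95% interval from −0.31 to 0.54. Its exons overlap those of PCSK7, on the opposite strand, over 446 bases. Whether strand was used in the counting is not stated, and PCSK7 had 7.31 to 8.78 TPM in TRF+DDP, 5.71 to 7.24 in TRF, 7.24 to 8.41 in DDP and 6.67 to 6.98 in CON libraries, so that without strand, reads from the shared bases cannot be assigned to either gene at the low TAGLN levels of DDP and CON cells.

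**Figure D2:**
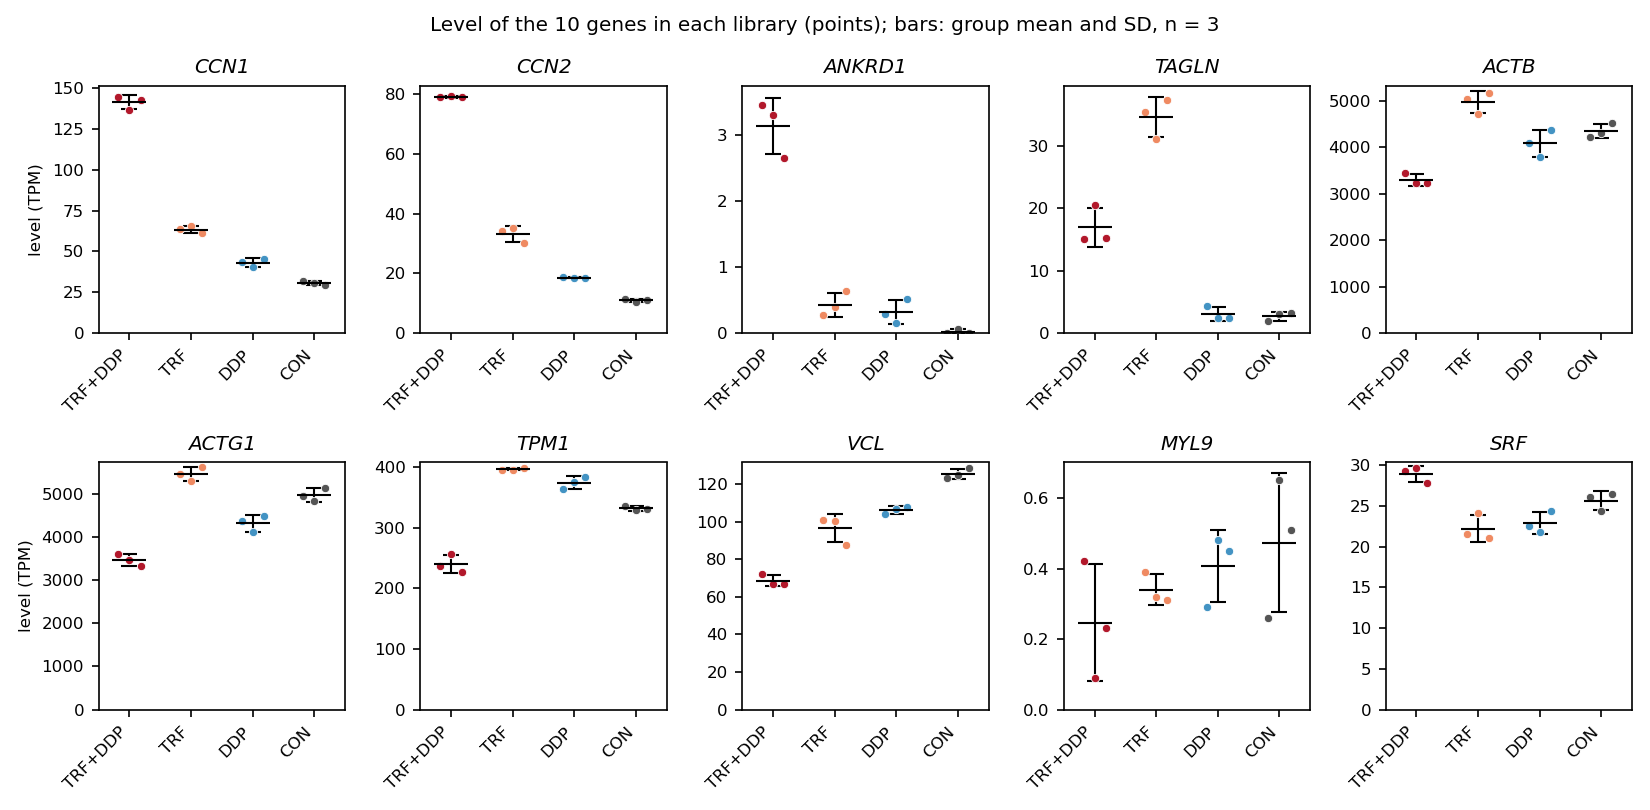
Level in TPM (y axis, from 0) of each of the 10 genes in each library of the TRF+DDP, TRF, DDP and CON groups (x axis); points are libraries and bars give the group mean and SD (n = 3). CCN1, CCN2 and ANKRD1 are highest in TRF+DDP cells (141.3, 79.1 and 3.13 TPM on average), TAGLN, ACTB, ACTG1 and TPM1 in TRF cells (34.6, 4976, 5461 and 396.8 TPM), and VCL in CON cells (125.5 TPM).

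The 2 cytoplasmic actins, ACTB and ACTG1, which build the filaments of nonmuscle cells, were the most abundant of the 10, highest in TRF and lowest in TRF+DDP cells. ACTB (chr7:5527147-5563784, minus strand) had 3452, 3234 and 3223 TPM in TRF+DDP cells, 5045, 4711 and 5171 TPM in TRF cells, 4084, 3792 and 4361 TPM in DDP cells and 4210.2, 4309 and 4511 TPM in CON cells. ACTG1 (chr17:81509971-81523847, minus strand) had 3608, 3479 and 3332 TPM in TRF+DDP cells, 5461, 5300.3 and 5621 TPM in TRF cells, 4367, 4116 and 4497 TPM in DDP cells and 4948, 4831 and 5154 TPM in CON cells. For both, every TRF+DDP library lay below every other library and every TRF library above every other library, while DDP and CON overlapped for ACTB alone. The 2 genes together took 0.678% ± 0.026 of all TPM in TRF+DDP cells, 1.04% ± 0.04 in TRF cells, 0.841% ± 0.048 in DDP cells and 0.932% ± 0.029 in CON cells (SD, n = 3 each).

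In TRF+DDP against TRF cells ACTB was lower by 0.59 (log2 difference −0.59 ± 0.053 SE; limma, adjusted p = 2.52e-06), with a ratio of means of 0.664, and ACTG1 by 0.65 (−0.65, adjusted p = 1.65e-07), with a ratio of 0.636. Both calls lie near the fold limit. With quantile normalization the differences were −0.49 for ACTB and −0.52 for ACTG1, under it, and that of ACTB was −0.58 without TRF replicate 1, −0.56 without TRF replicate 3, −0.58 without TRF+DDP replicate 2 and −0.57 without TRF+DDP replicate 3. Against DDP cells the differences were −0.30 for ACTB (adjusted p = 2.84e-04) and −0.32 for ACTG1 (adjusted p = 3.01e-05), and in TRF against CON cells 0.20 (adjusted p = 0.00691) and 0.13 (adjusted p = 0.0163), all under the fold limit. The coding parts of both genes have 1128 bases and are 91.2% identical, with no identical run over 59 bases. Only a coding read inside such a run would fit both genes equally. How such reads were assigned is not stated, and their part in the split between the 2 genes was not tested. Of 33 actin pseudogenes listed, 0 had a mean of 1 TPM, and their means added up to 2.16 TPM.

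TPM1 (chr15:63042632-63071915, plus strand), a tropomyosin that winds along actin filaments, was also highest in TRF and lowest in TRF+DDP cells, but unlike the actins it had higher means in DDP than in CON cells. It had 237, 256 and 228 TPM in TRF+DDP cells, 396, 395 and 399 TPM in TRF cells, 363, 376 and 384 TPM in DDP cells, and 337, 329 and 330.3 TPM in CON cells. The groups did not overlap, and TRF+DDP was lowest. TPM1 was lower in TRF+DDP than in TRF cells by 0.72 (log2 difference −0.72 ± 0.042 SE; limma, adjusted p = 6.93e-08) and lower than in DDP cells by 0.64 (−0.64, adjusted p = 5.36e-08), while TRF against CON gave 0.26 and DDP against CON 0.17, under the fold limit. With TMM-style scaling the difference from DDP cells was −0.52, under the fold limit too.

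VCL (chr10:73995193-74121363, plus strand), or vinculin, which ties filaments to adhesions, stepped down in the order opposite to that of CCN1 and CCN2. It had 72.3, 66.8 and 67.0 TPM in TRF+DDP cells, 101, 101 and 87.8 TPM in TRF cells, 104, 107 and 108 TPM in DDP cells, and 123, 125 and 128 TPM in CON cells. The 4 groups did not overlap, with CON highest. VCL was lower in TRF+DDP than in DDP cells by 0.62 (log2 difference −0.62 ± 0.055 SE; limma, adjusted p = 7.59e-07) and than in CON cells by 0.86 (−0.86, adjusted p = 3.30e-08). TRF+DDP against TRF gave −0.48, TRF against CON −0.38 and DDP against CON −0.24, each under the fold limit, and with TMM-style scaling the difference from DDP cells was −0.50, under it too. AP3M1 on the opposite strand shares 1109 of the 9992 exon bases of VCL. It had 22.7 to 25.9 TPM in TRF+DDP, 20.5 to 24.2 in TRF, 30.4 to 33.8 in DDP and 29.1 to 31.3 in CON libraries. If strand was not used in the counting, reads from the shared bases cannot be assigned to either gene. Their part in the VCL levels was not tested.

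MYL9 (chr20:36541484-36551447, plus strand), a regulatory light chain of smooth muscle and nonmuscle myosin, was near 0 throughout. It had 0.42, 0.09 and 0.23 TPM in TRF+DDP cells, 0.39, 0.32 and 0.31 TPM in TRF cells, 0.29, 0.48 and 0.45 TPM in DDP cells, and 0.26, 0.65 and 0.51 TPM in CON cells. All groups overlapped, and with no filter on low values its difference of TRF+DDP from DDP was −0.18 with a 95% interval from −0.47 to 0.11.

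SRF itself (chr6:43171299-43181507, plus strand) moved little. It had 29.3, 29.6 and 27.9 TPM in TRF+DDP cells, 21.5, 24.1 and 21.0 TPM in TRF cells, 22.5, 21.8 and 24.4 TPM in DDP cells, and 26.1, 24.4 and 26.5 TPM in CON cells. TRF+DDP libraries lay above all others, TRF and DDP libraries overlapped, and so did DDP and CON. Its differences were 0.32 ± 0.066 for TRF+DDP against DDP (SE; limma, adjusted p = 8.93e-04), 0.37 against TRF (adjusted p = 6.66e-04) and −0.20 for TRF against CON (adjusted p = 0.0198), and no simple comparison passed the fold limit.

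Counted over the 8 tested genes, TRF+DDP against DDP called 5, of which CCN1, CCN2 and TAGLN were higher and TPM1 and VCL lower, beside 33.2% of all tested genes (11.8% higher and 21.4% lower). Against TRF it called 6, with CCN1 and CCN2 higher and TAGLN, ACTB, ACTG1 and TPM1 lower, beside 16.3% of all tested genes (10.2% higher and 6.1% lower). Against CON it called 4, with CCN1 (2.16), CCN2 (2.75) and TAGLN (2.28) higher and VCL lower, beside 35.1% (15.6% higher and 19.5% lower). TRF against CON called 3, all higher, beside 25.6% (8.41% higher and 17.1% lower), and DDP against CON called CCN2 alone, as higher, beside 2.01% (1.86% higher and 0.159% lower). Medians over the 8 genes were 0.01 for TRF+DDP against DDP, −0.54 against TRF, −0.11 against CON, 0.23 for TRF against CON and 0.01 for DDP against CON, and over all tested genes −0.10, 0.06, −0.03, −0.11 and 0.06. The median of the 8 genes therefore hides changes in both directions. TMM-style scaling brought the median of all genes in TRF+DDP against DDP to 0.00 and in TRF against CON to −0.01, a shift of about the size of the smallest differences given here.

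**Figure D3:**
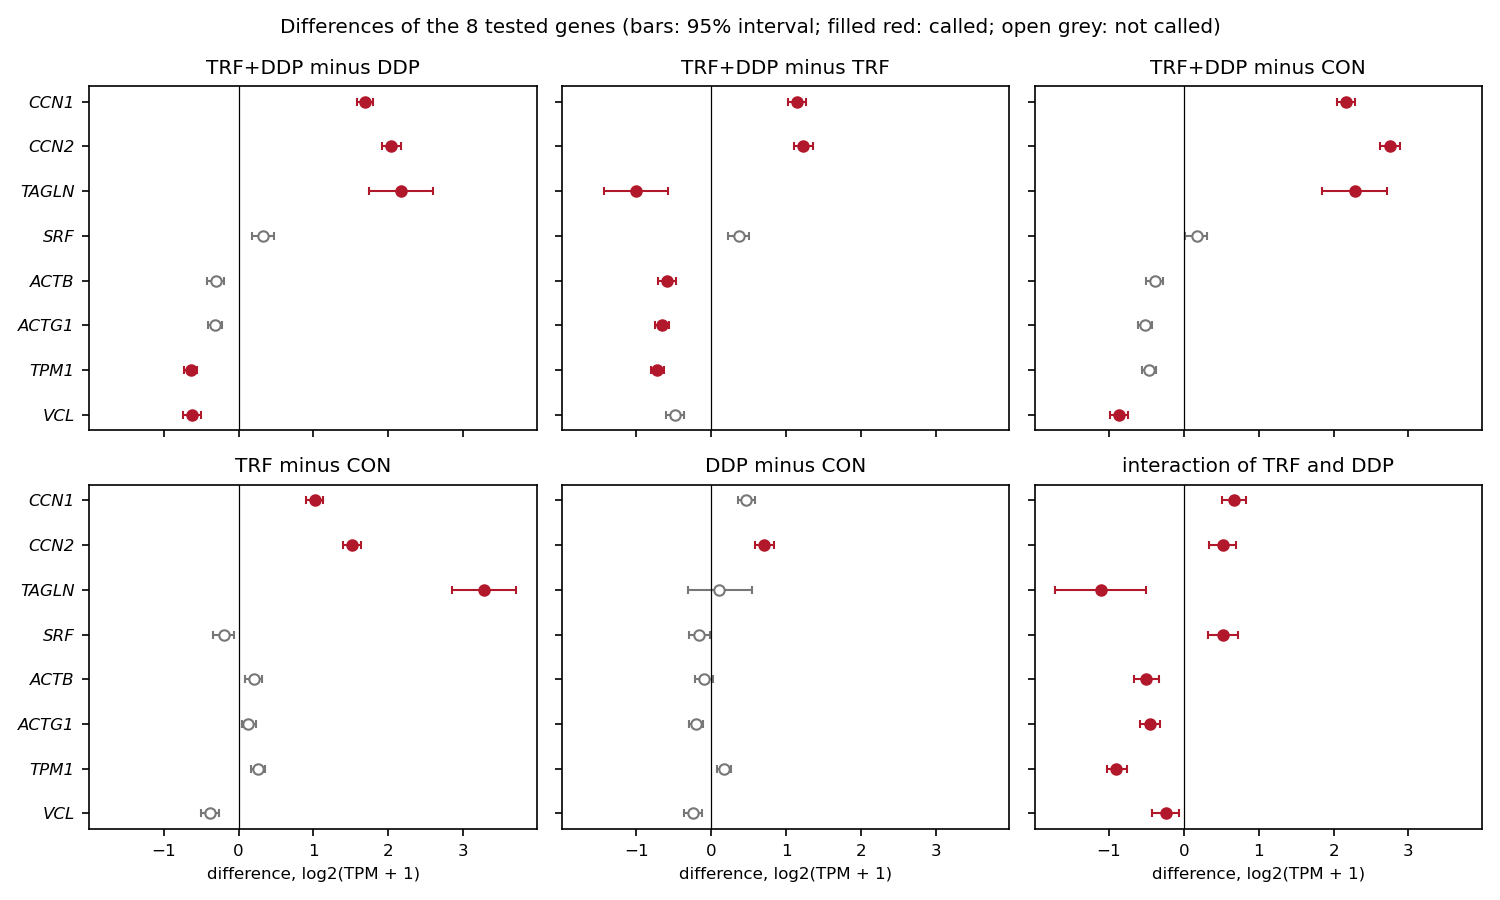
Difference on log2(TPM + 1) (x axis) with its 95% interval for the 8 tested genes (y axis) in 5 comparisons and in the interaction of TRF and DDP; filled red points are called and open grey points are not. In TRF+DDP minus DDP the points of CCN1, CCN2 and TAGLN lie at 1.69, 2.04 and 2.17 and those of TPM1 and VCL at −0.64 and −0.62, and in DDP minus CON only CCN2 is called.

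Whether DDP acted differently in TRF medium than in normal medium was asked with the interaction, the difference of DDP from no drug in TRF cells minus the same difference in normal medium, with a call at an adjusted p below 0.05. All 8 tested genes passed, 3 positive and 5 negative, beside 29.8% of all tested genes (13.5% positive and 16.3% negative). It was positive for CCN1 (0.67 ± 0.073 SE; limma, adjusted p = 4.03e-05), CCN2 (0.52, adjusted p = 6.32e-04) and SRF (0.52, adjusted p = 0.00136). It was negative for TAGLN (−1.11 ± 0.276, adjusted p = 0.0101), TPM1 (−0.90, adjusted p = 1.54e-06), ACTB (−0.50, adjusted p = 4.29e-04), ACTG1 (−0.45, adjusted p = 1.76e-04) and VCL (−0.24, adjusted p = 0.0341). So the secreted YAP targets and SRF lay above the sum of the separate differences, and the 4 filament genes and VCL below it. The call of VCL was lost with no filter on low values (adjusted p = 0.0870), without a mean-variance trend (adjusted p = 0.0623), and when any of 8 of the 12 libraries was left out: CON replicates 1 (0.0727) and 2 (0.0674), DDP replicates 2 (0.0566) and 3 (0.0711), TRF replicates 1 (0.0798) and 2 (0.0657), and TRF+DDP replicates 2 (0.0764) and 3 (0.0729). A fold over 1.5 was reached by CCN1, TAGLN and TPM1, and the share of all tested genes at that limit was not counted.

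ACTB was then set beside 13 other genes used as references in RT-qPCR. In TRF+DDP against TRF cells, the comparison in which ACTB and ACTG1 were called lower, 0 of the 13 was called, beside 16.3% of all tested genes. All 13 lay closer to 0 there than ACTB at −0.59 in TPM as deposited, and all 13 did so with TMM-style scaling. With quantile normalization ACTB was at −0.49 and 12 of the 13 lay closer to 0. Scaling by the 13 genes gave 13 as well, but it holds their own average change near 0 and so is no separate check. In the other comparisons between groups the count was lower as deposited: 8 of the 13 lay closer to 0 than ACTB in TRF+DDP against DDP cells (6 with TMM-style scaling, 10 with quantile normalization). The count was 10 in TRF+DDP against CON, 9 in TRF against CON (2 with quantile normalization) and 10 in DDP against CON (12 with TMM-style scaling, 7 with quantile normalization), and 13 in the interaction. The interaction itself called 3 of the 13 positive and 3 negative (23.1% each, beside 13.5% and 16.3% of all tested genes). GAPDH, a glycolytic enzyme, had 6114 TPM on average in TRF+DDP cells and 7319 TPM in TRF cells, a difference of −0.26, and PPIA, a peptidyl-prolyl isomerase, had 3082 TPM in TRF+DDP cells and 3131 TPM in TRF cells, a difference of −0.02. In TRF+DDP against DDP cells 2 of the 13 were called, both higher (15.4%, beside 11.8% of all tested genes higher and 21.4% lower). Among them was TFRC, the transferrin receptor, at 0.66 (limma, adjusted p = 1.32e-04). In TRF against CON cells 1 of the 13 was called higher and 2 lower (7.69% and 15.4%, beside 8.41% and 17.1% of all tested genes). The lower ones were GUSB at −0.83 (limma, adjusted p = 8.58e-07) and SDHA at −0.66 (adjusted p = 8.52e-08). With TMM-style scaling SDHA was at −0.54 there, under the fold limit.

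**Figure D4:**
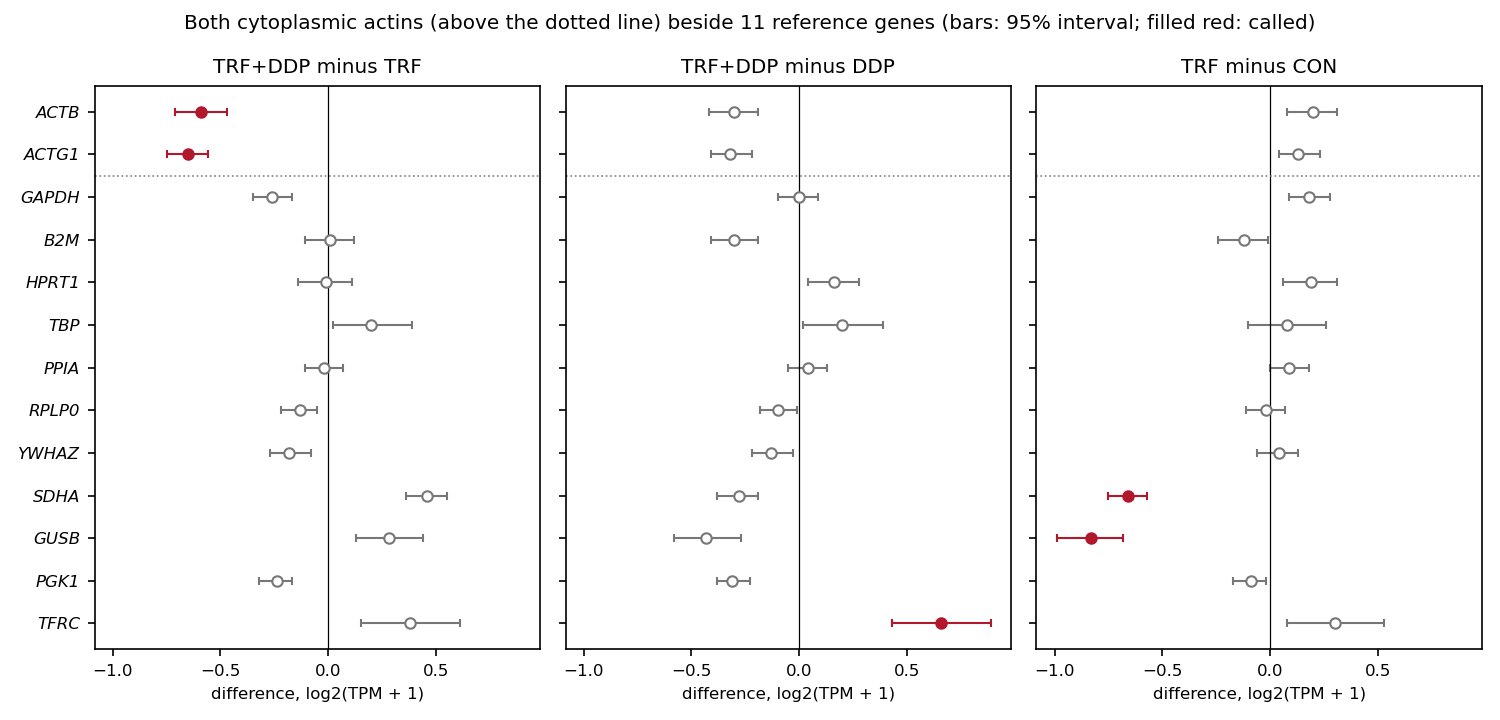
Difference on log2(TPM + 1) (x axis) with its 95% interval for ACTB and ACTG1 (above the dotted line) and 11 of the 13 reference genes (y axis) in TRF+DDP minus TRF, TRF+DDP minus DDP and TRF minus CON; filled red points are called. In TRF+DDP minus TRF, ACTB and ACTG1 lie at −0.59 and −0.65 and are the only called points.

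Regulators of these genes were read from 2 lists. Of the SRF cofactors, 5 of 6 were tested, and 0 rose and 2 fell in TRF+DDP against DDP cells, where 11.8% of all tested genes were called higher and 21.4% lower. MRTFA, the actin-sensing cofactor, averaged 17.5 TPM in TRF+DDP cells and 36.3 TPM in DDP cells (difference −1.01, limma, adjusted p = 3.45e-08), and its relative MRTFB 4.15 TPM in TRF+DDP cells and 10.8 TPM in DDP cells (−1.20, adjusted p = 3.38e-07). Of 18 genes of the YAP, TEAD and Hippo pathway, all tested, 2 rose and 2 fell (11.1% each), a share near that of all tested genes for the rises and below it for the falls: TEAD3, a DNA-binding partner of YAP, rose (0.83) and so did AMOTL2 (1.00), an adaptor that binds YAP, while TEAD1 (−1.43) and the Hippo kinase STK3 (−1.14) fell. YAP1 averaged 33.0 TPM in TRF+DDP cells and 49.7 TPM in DDP cells (−0.58, adjusted p = 1.01e-05, under the fold limit, and past it at −0.60 when scaled by the reference genes). Its relative WWTR1 averaged 82.7 TPM in TRF+DDP cells and 85.3 TPM in DDP cells (−0.05). In TRF against CON cells MRTFB fell (−0.61, but −0.51 with TMM-style scaling and −0.44 with quantile normalization, under the fold limit), NF2, an activator of Hippo signalling, rose (0.70), and TEAD1 fell (−0.80).

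In TRF+DDP against DDP cells other targets of SRF were called about as often as genes in general, but not in the interaction. Of 27 other SRF-MRTF targets of the cytoskeleton, 26 were tested, and in TRF+DDP against DDP cells 3 rose and 5 fell (11.5% and 19.2%, beside 11.8% and 21.4% of all tested genes), with a median of −0.12 beside −0.10 over all genes. With TMM-style scaling 4 rose and 3 fell, beside 2122 and 2390 of the 13854 tested genes. With quantile normalization 3 rose and 6 fell, beside 2179 and 2273. As deposited, the LIM protein PDLIM7 rose (1.22), with 237.8 TPM in TRF+DDP cells and 101.6 TPM in DDP cells, as did TUFT1 (0.91) and the actin bundler LIMA1 (0.84), while the myosin heavy chain MYH10 (−1.36), the smooth muscle actin ACTA2 (−0.92), the tropomyosin TPM4 (−0.71) and the filament crosslinker ACTN4 (−0.67, and −0.55 with TMM-style scaling) fell. In TRF against CON cells 3 rose, PDLIM7 (1.66), the integrin ITGA5 (0.73) and the adhesion protein ZYX (0.70), and 2 fell, ACTA2 (−1.15) and MYH10 (−0.91), which is 11.5% and 7.69% of those tested, beside 8.41% and 17.1% of all tested genes. In the interaction 2 of the 26 were called positive and 13 negative (7.69% and 50%, beside 13.5% and 16.3% of all tested genes). ACTA2 was lowest in TRF cells, where the cytoplasmic actins were highest, with means of 28.2 TPM in TRF+DDP, 12.7 TPM in TRF, 54.3 TPM in DDP and 29.3 TPM in CON cells.

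Of 19 other YAP-TEAD targets, all tested, 6 rose and 8 fell in TRF+DDP against DDP cells (31.6% and 42.1%, beside 11.8% and 21.4% of all tested genes), with a median of −0.38 beside −0.10 over all genes. The list was thus called in both directions, unlike CCN1 and CCN2. The stress gene GADD45A rose (1.85), as did the ectonucleotidase NT5E (1.69), FJX1 (1.25) and AMOTL2 (1.00), while the growth factor TGFB2 (−1.31), CRIM1 (−1.27), RBMS3 (−1.16) and ASAP1 (−1.12) fell. The study counts GADD45A among genes of the p53 and apoptosis pathways and reports its rise with the combination by RT-qPCR. Which factor drove it was not tested here. In TRF against CON cells 5 rose and 5 fell, 26.3% each beside 8.41% and 17.1% of all tested genes. NT5E at 2.08 and FJX1 at 1.70 were among those that rose and CRIM1 at −0.85 among those that fell. With TMM-style scaling 3 fell, beside 1858 of the 13854 tested genes, and with quantile normalization 2 fell, beside 1635. Within the CCN family 3 of 6 genes were tested, and CCN5, a relative that lacks the last domain of CCN1 and CCN2, went the other way: it averaged 1.12 TPM in TRF+DDP cells and 17.6 TPM in DDP cells (−3.13, adjusted p = 4.84e-11), and 1.54 TPM in TRF cells and 23.3 TPM in CON cells (−3.27, adjusted p = 5.10e-11). Of the 4 tropomyosins TPM1 and TPM4 fell in TRF+DDP against DDP cells and TPM2 (0.07) and TPM3 (0.33) were not called.

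Of 7 early genes that SRF drives with the TCF cofactors, 5 passed the filter on low values. EGR1 and FOSB passed it only through their TRF+DDP libraries, so their levels are given with no test. EGR1 averaged 13.2 TPM in TRF+DDP, 0.97 TPM in TRF, 0.43 TPM in DDP and 0.28 TPM in CON cells. FOSB averaged 10.2 TPM in TRF+DDP, 0.94 TPM in TRF, 0.22 TPM in DDP and 0.17 TPM in CON cells. EGR2 and EGR3 stayed under the filter. Of the 3 others, FOS (3.19) and IER2 (1.09) rose in TRF+DDP against DDP cells and JUNB was at 0.22, under the fold limit. Of all tested genes 11.8% were called higher there and 21.4% lower. FOS averaged 37.1 TPM in TRF+DDP, 4.02 TPM in TRF, 3.09 TPM in DDP and 3.42 TPM in CON cells, and TRF and DDP libraries each overlapped CON libraries. Its TRF+DDP libraries were widely spread, from 26.6 to 49.3 TPM.

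**Figure D5:**
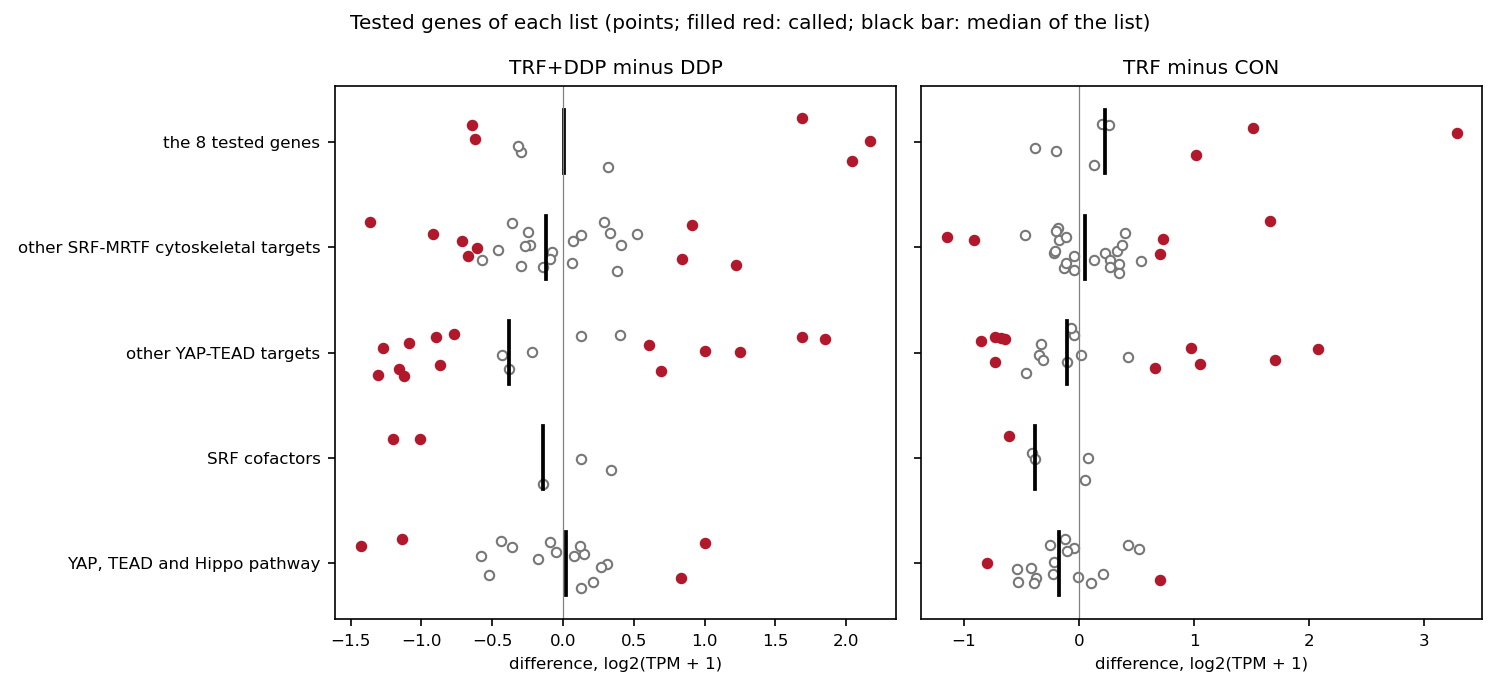
Difference on log2(TPM + 1) (x axis) of each tested gene in 5 lists (y axis) for TRF+DDP minus DDP and TRF minus CON; points are genes, filled red where called, and black bars are list medians (AMOTL2 and LATS2 stand in 2 lists). In TRF+DDP minus DDP the other SRF-MRTF targets (median −0.12) and YAP-TEAD targets (median −0.38) hold called genes on both sides of 0.

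The genes whose levels over the 12 libraries were most like those of each member were ranked among 7742 genes averaging 10 TPM or more, as a description with no test, since the libraries fall into 4 groups. TAGLN was most like PDLIM7 (Pearson r = 0.991), with EIF4EBP1 (0.988) also near the top. CCN1 was most like PI4K2A, PGF and SMTN (0.996 each), and PGF and ADRM1 (0.996 each) stood near the top for CCN2. ACTB was most like ACTG1 (0.979), DBN1 (0.979) and TYMP (0.958), TPM1 like IQSEC1 (0.991), and VCL like ATP2B4 (0.985), while SRF had no gene above that of FAF2 (0.929). SMTN, a smooth muscle protein that binds actin, averaged 89.4 TPM in TRF+DDP, 34.2 TPM in TRF, 21.5 TPM in DDP and 13.2 TPM in CON cells.

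Markers of other cell types were read beside these results, since TAGLN, MYL9 and ACTA2 are also genes of smooth muscle. The labels name the same cultured line, A549/DDP, for all libraries. In bulk RNA a change in the share of cells that express a gene and a change in RNA per cell cannot be told apart. Of 7 smooth muscle markers, only SMTN and ACTA2 reached 1 TPM, while MYH11, CNN1, DES, LMOD1 and ACTG2 were near 0 in all groups, and the summed level ran from 111.2 to 122.2 TPM in TRF+DDP, 45.3 to 49.2 in TRF, 74.1 to 78.5 in DDP and 40.0 to 45.3 in CON libraries. Of 6 fibroblast markers only COL1A1 reached 1 TPM, and 0 of 4 endothelial and 0 of 5 leukocyte markers did. The epithelial keratins KRT7, KRT8 and KRT18 were high, with KRT19, EPCAM and CDH1 under 1 TPM, and the epithelial sum was 2687 to 2876 TPM in TRF+DDP, 2715 to 2881 in TRF, 2296 to 2586 in DDP and 1850 to 1925 in CON libraries; its part in the results was not tested. Libraries of a group correlated at 0.979 to 0.983 and those of different groups at 0.915 to 0.979, and genes at 1 TPM or more numbered 13384 to 13500 in TRF+DDP, 13029 to 13307 in TRF, 13866 to 14028 in DDP and 13726 to 13854 in CON libraries. Mitochondrial genes took 8.28 to 8.55% of all TPM in TRF+DDP, 6.37 to 8.84% in TRF, 9.88 to 9.99% in DDP and 10.3 to 10.8% in CON libraries. TRF replicate 3 was lowest, at 6.37%, and the part of this share in the results was not tested. No read counts were used here, and the depth behind each TPM is therefore unknown.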

How the data were processed

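RNA of A549/DDP cells was measured in 12 libraries, 3 in each of the groups TRF+DDP, TRF, DDP and CON, grouped by their titles. The authors selected polyadenylated RNA, aligned reads with HISAT2, assembled transcripts with StringTie and deposited TPM per gene and library, with group means that were not used here. The submitters' notes name edgeR, the study's methods DESeq2. Their versions, the build and the strand setting are not stated in the sources. The deposited TPM hold 60664 Ensembl identifiers and 238 assembled loci, of which 60463 matched a symbol.

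Values entered the tests as log2(TPM + 1) without rescaling, so that fold changes understate those of low genes. Genes averaging 1 TPM or more were tested in 1 limma fit of the 4 groups with a trend and robust empirical Bayes, and p-values were adjusted per comparison by Benjamini-Hochberg over all 13854 genes. Each group with a treatment was compared with CON, the combination also with each single treatment, and the interaction was fitted; comparisons that share a group are not independent. The 10 genes, the lists and the alternatives were chosen with earlier results of these data known. Named genes were all 10 members, every reference gene, up to 4 called genes of each list with the largest change and the 3 genes most like each member, and not every gene that this rule gives is reported here; TPM2, TPM3, YAP1, WWTR1 and the genes behind a lost call were named after their values were seen. In a simulation of TRF+DDP against DDP (13854 genes) the fit recovered 39 of 50 genes raised or lowered by 0.8 on the log2 scale, 40 of 50 by 1, 45 of 50 by 1.5 and 45 of 50 by 2, and it called 1 unchanged gene. Only these genes were changed there, with independent normal noise, whereas 33.2% were called in the data. The simulated rates therefore need not hold for the data. Promoter sequences came from RefSeq (GRCh38.p14), gene positions, exon overlaps and actin coding sequences from GENCODE v29. The alternatives were TMM-style scaling (trims of 0.3 and 0.05), quantile normalization, scaling by 13 reference genes, a pseudocount of 0.1, no filter on low values, a filter of 1 TPM or more in each library, no trend, only the groups compared, a replicate block, a fold over 1.5 for the interaction, and each library left out. No read counts were used, so precision rests on the spread of 3 libraries. R 4.3.3 and limma 3.58.1 were used for the fits, and Python for the rest.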

Additional observations from a re-analysis of the deposited data

Results flagged for a closer look

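For all 8 tested genes the difference made by DDP in TRF medium was not the one made in normal medium by the limma interaction test, with 29.8% of all tested genes past the same limit. The call of VCL is the least secure. It was lost with no filter on low values, without a trend and in 8 of the 12 fits with 1 library left out. The difference of differences, on log2(TPM + 1), was −1.11 for TAGLN (adjusted p = 0.0101), −0.90 for TPM1 (1.54e-06), −0.50 for ACTB (4.29e-04), −0.45 for ACTG1 (1.76e-04) and −0.24 for VCL (0.0341), and 0.67 for CCN1 (4.03e-05), 0.52 for CCN2 (6.32e-04) and 0.52 for SRF (0.00136). The largest of these belongs to TAGLN, which fell by 1.00 with DDP in TRF medium and differed by 0.11 in normal medium, and the smallest to VCL, with −0.48 in TRF medium and −0.24 in normal medium. Groups of 3 libraries are too small for a test of single outlying libraries.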

How the results depend on the processing

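Of 1000 values of the 8 tested genes under the alternatives other than a fold limit for the interaction, 979 kept their direction and their side of the limits, 18 no longer passed them and 3 changed sign. The sign changes were those of uncalled values: ACTG1 in TRF against CON was −0.01 with quantile normalization, and TAGLN in DDP against CON was −0.05 without CON replicate 1 and −0.10 without DDP replicate 1, in a range from −0.10 to 0.24 over the libraries left out. With TMM-style scaling 3 of the 8 genes were called in TRF+DDP against DDP in place of 5, since TPM1 (−0.52) and VCL (−0.50) fell under the fold limit. Of all 13854 tested genes 4512 were called there in place of 4599. With a fold over 1.5 the interaction called 3 in place of 8, without CCN2, SRF, ACTB, ACTG1 and VCL. How many of all tested genes it then called was not counted. Leaving out 1 library at a time gave 5 to 6 called members in TRF+DDP against DDP, 5 to 7 against TRF and 4 to 5 against CON. It gave 3 to 3 in TRF against CON, 1 to 1 in DDP against CON and 7 to 9 in the interaction. The highest counts include ANKRD1 where it passed the filter. It did so only through its TRF+DDP libraries, so these added calls give no further support. The counts of all genes called were then 4535 to 4630, 2159 to 2459, 4832 to 4926, 3459 to 3775, 251 to 291 and 3459 to 4424 in the same order. Scaling moved the split of calls: higher against lower was 1631 against 2968 for TRF+DDP against DDP as deposited, 2122 to 2390 with TMM-style scaling and 2179 to 2273 with quantile normalization, and for TRF against CON it was 1165 to 2375, 1621 to 1858 and 1625 to 1635. For TRF+DDP against TRF it was 1413 to 845, 1169 to 1061 and 1049 to 1066, and for DDP against CON 257 to 22, 169 to 37 and 169 to 46. Same-numbered libraries of different groups did not deviate together (18 pairs, r from −0.08 to 0.08), so the numbers were not taken as pairs, and with the replicate block 5, 6, 4, 3, 1 and 8 of the members were called in the order above, as without it. Of all tested genes 4590, 2266, 4864, 3544, 274 and 4071 were called with that block. The cause of these shifts was not tested. With TPM alone, depth limits cannot be given.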
